A study of Mus musculus with 36 samples.

Results

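At 8 h of IL-1β, cells transfected with siRNA against *Ift88* (IFT88siRNA) held less RNA than cells transfected with non-targeting siRNA (NT) for a group of genes that IL-1β raises. In bulk RNA, fewer cells of a kind and less RNA per cell cannot be told apart. Among the named genes, *Cxcl2* was 3.92-fold lower, *Mmp3* 3.33-fold, *Mmp13* 3.20-fold, *Csf3* 2.88-fold and *Il6* 2.70-fold lower. Of 15165 genes tested, 93 were lower in IFT88siRNA (0.613%) and 12 were higher (0.0791%). The largest rises among the named genes were those of *Scara5*, at 2.33-fold, and of *Anpep*, a cell-surface aminopeptidase, at 1.89-fold.

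The comparison was made on 6 libraries of the 36 in the series, the 3 IFT88siRNA and the 3 NT libraries taken at 8 h. The cells were a wild-type immortalised mouse line of fibroblastic chondrocytes, transfected below confluence and, by the labels, grown to confluence before IL-1β was added. Each library was of poly(A) RNA. Both groups received 50 nM siRNA according to the sample labels, a pool of 4 siRNAs against *Ift88* or a non-targeting pool, and then 10 ng/ml mouse IL-1β for 8 h. The methods state a lower siRNA concentration than the labels do. The other libraries covered 0 h (medium without IL-1β), 1, 2, 4 and 24 h, with 3 libraries per siRNA and time. The libraries came from 1 cell line and 1 siRNA pool per group, and the labels do not say whether replicates were separate cultures, so p-values measure the spread between these libraries, which may be technical.

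IFT88 is a subunit of the intraflagellar transport B complex, which carries cargo along the primary cilium, a single microtubule-based projection of the cell surface. IL-1β binds its receptor on the cell and signals through MyD88 and IRAK proteins to NF-κB and to MAP kinases, which activate AP-1. In chondrocytes this is known to raise chemokines, IL-6, the enzymes that make nitric oxide and prostaglandin E2, and the proteases that break down cartilage matrix. Genes of the negative feedback on NF-κB are raised by the same signal.

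Counts on genes were between 20329867 and 28085784 per library at 8 h, and this depth gives a precision that covers counting error only. Levels are given as CPM (counts relative to library size) scaled by edgeR's TMM method, and the fold changes and adjusted p-values are those of edgeR's quasi-likelihood test, two-sided, with Benjamini-Hochberg adjustment over all genes tested. A gene was called lower or higher with an adjusted p under 0.05 and a fold change over 1.5, and only called genes are said to have risen or fallen. Of the cartilage markers, *Col9a1* was at 0 and *Acan* was between 0.14 and 0.33 CPM over the 6 libraries, whereas *Sox9* was between 24.9 and 33.6 CPM and *Comp* between 17.8 and 23.1 CPM. In all, 8 of 23 cartilage markers were under 1 CPM in every library, against 0 of 10 fibroblast markers. Of the leukocyte markers, 8 of 11 were under 1 CPM, and *Cd3e* and *Tyrobp* were at 0 throughout. The summed leukocyte markers were between 34.6 and 39.7 CPM in NT and between 28.9 and 31.9 CPM in IFT88siRNA, and most of that was *Cd14*. Of the others, 5 of 7 endothelial, 6 of 7 epithelial, 6 of 7 muscle and 4 of 6 adipocyte markers were under 1 CPM.

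*Ift88*, the targeted gene (ENSMUSG00000040040, chr14:57424062-57517936 in GRCm38, plus strand), was at 7.37, 7.87 and 6.63 CPM in NT replicates 1 to 3. In IFT88siRNA replicates 1 to 3 it was at 1.57, 1.65 and 3.15 CPM, which is 21.6%, 22.6% and 43.2% of the NT mean. No library overlapped the other group, and the gene fell by 1.76 on the log2 scale (SE 0.220, adjusted p = 0.0019). These values rest on 148 to 171 reads per NT library and on 34, 46 and 87 reads in IFT88siRNA. Part of its exons, 67 bases, is shared with the antisense gene *Ift88os*, and counting that ignores strand cannot tell their reads apart.

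IFT88siRNA replicate 3, in which *Ift88* was least reduced, stood apart from the other IFT88siRNA libraries. On the first principal component, which held 50.8% of the variance, it was at −5.95, among the NT libraries (−18.5 to −4.27) and away from IFT88siRNA replicates 1 and 2 (18.4 and 20.7). Its counts differed from those of replicates 1 and 2 by a chi-square of 9.89 and 10.9 per degree of freedom, while the other pairs within a group gave 3.56 to 5.70. Mitochondrial transcripts took 1.15% of its counts and 0.719% to 0.970% of the others'. Without this library, 543 of 15243 genes were called lower (3.56%) and 40 higher (0.262%), and 89 of the 93 lower genes and all 12 higher genes were called again. Leaving out any of the other 5 libraries gave 47 to 98 calls in place of 105.

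The 93 lower genes had a median log2 difference of −0.87 and fold changes from 1.51 to 4.20, and 32 of them were lower by 2-fold or more. In 10 of them, every IFT88siRNA library was under 50% of the lowest NT library. Protein-coding genes were 83 of the 93 and 12 of the 12 higher genes, against 84.6% of all genes tested. All 105 called genes had groups that did not overlap, which was so for 25.6% of all genes tested. With the adjusted p alone, 392 genes were lower and 252 higher, so that most genes in either direction passed the test with changes under 1.5-fold. Just outside the fold threshold were *Has2* at 1.494-fold and *Noct* and *Ciart* at 1.491-fold lower. IFT88siRNA replicate 1 was the library nearest to NT in 54 of the 93 lower genes, replicate 2 in 8 and replicate 3 in 31. These genes were called with all of these libraries, so the split depends on the call. It has no share over all genes tested beside it.

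**Figure D1:**
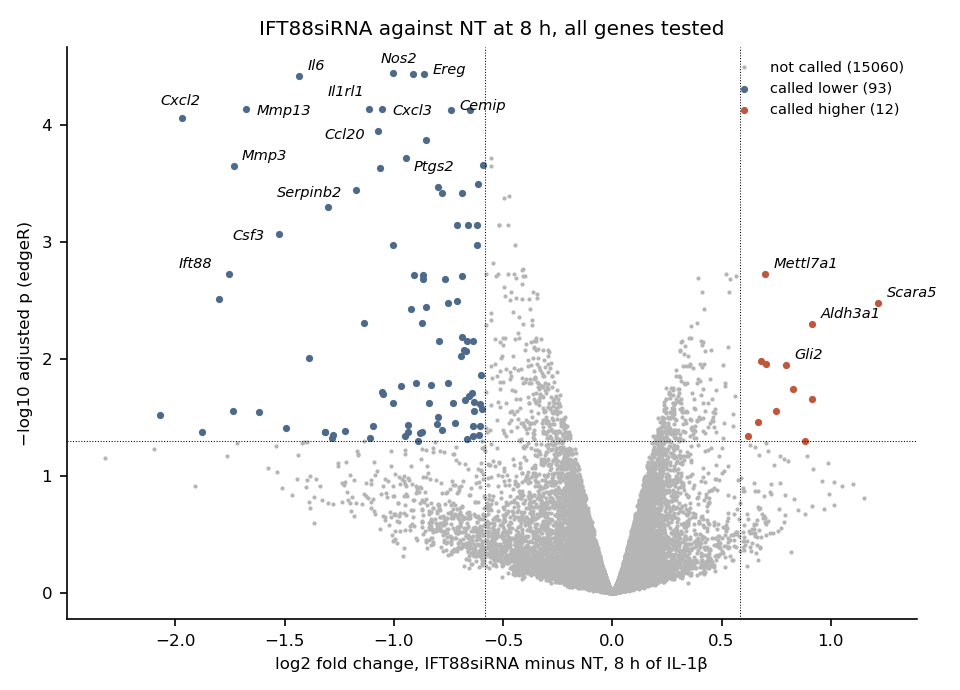
Log2 fold change (IFT88siRNA minus NT, x axis) against −log10 adjusted p (y axis) for the 15165 genes tested at 8 h, with dotted lines at a fold of 1.5 and an adjusted p of 0.05. The 93 genes called lower (blue) reach further from 0 than the 12 called higher (red).

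Of 32 lists of genes by function, chosen with earlier results of these data known, 455 members were tested, and 36 of them fell and 1 rose. The other 57 lower genes and 11 higher genes were in no list. Over all genes tested, 0.613% were called lower and 0.0791% higher. The median log2 difference over all of them was −0.0029, and 7697 of 15165 differences were below 0. These are the values to read each list against.

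**Figure D2:**
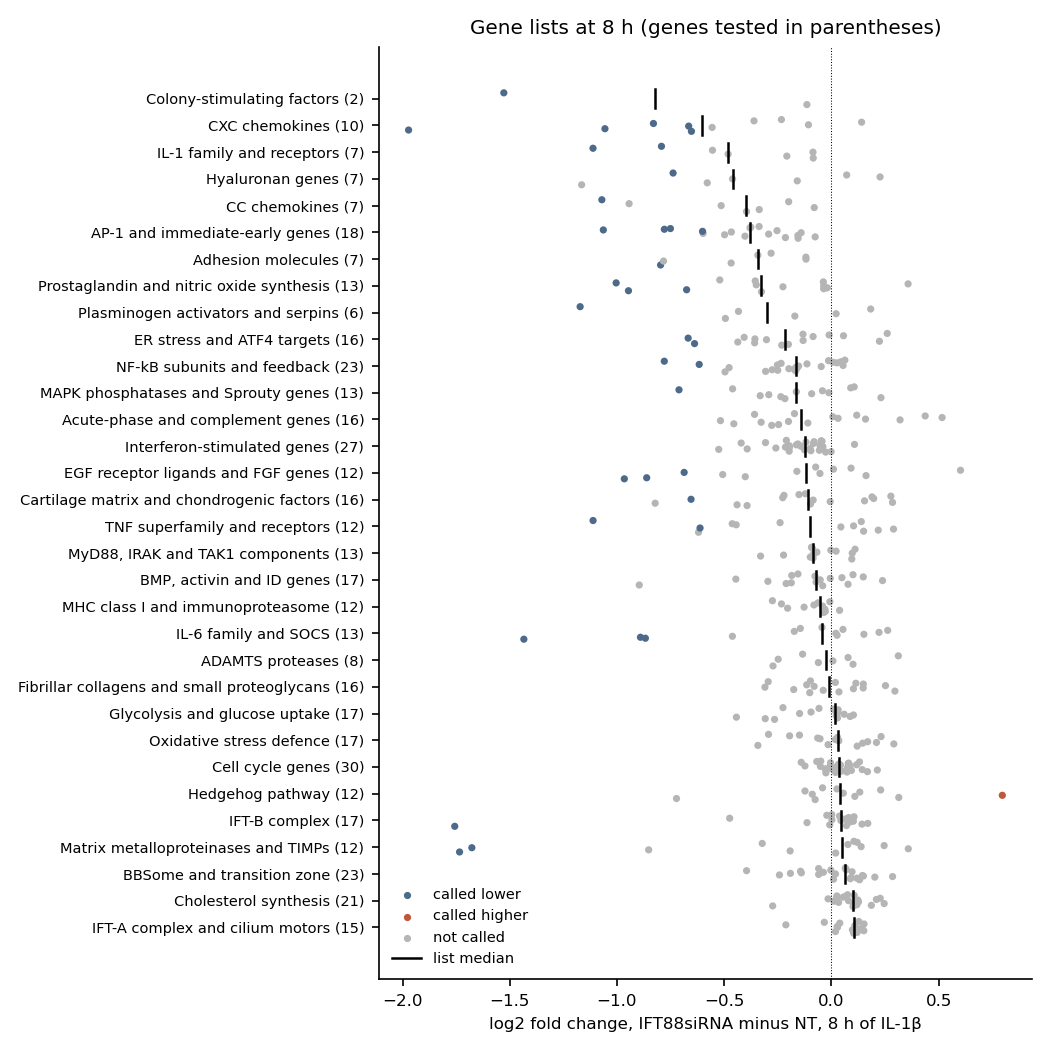
Log2 fold change (IFT88siRNA minus NT at 8 h, x axis) of every tested member of the 32 lists (rows, ordered by median; number tested in parentheses), with the list median as a black bar. Colony-stimulating factors, with 2 members, and CXC chemokines, with a median of −0.60 over 10, have the lowest medians, and cilium lists lie near 0.

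The CXC chemokines, which draw neutrophils and lymphocytes to a site of inflammation, had 5 of 10 members called lower and 9 of 10 with a negative difference (median −0.60). Those that fell were *Cxcl2*, *Cxcl3*, *Cxcl11*, *Cxcl9* and *Cxcl1*, and *Cxcl5*, another ligand of the receptor CXCR2, missed the fold threshold at 1.471-fold lower (adjusted p = 0.0002265). *Cxcl1*, *Cxcl2* and *Cxcl3* are closely related neighbours on chromosome 5 that bind CXCR2. How the counting treated reads that match more than 1 of them was not checked. The 120 bases before the start of each of these genes, and of *Il6*, *Mmp3* and *Mmp13*, are shown because these genes are called lower, belong to the groups described first here and hold a match to the NF-κB consensus or to the AP-1 motif TGANTCA. They are from RefSeq (GRCm38.p6), all on the plus strand, with the matched letters in capitals, which in the 3 chemokines join matches that overlap by all but 1 base.
Cxcl1, chr5:90891125-90891244: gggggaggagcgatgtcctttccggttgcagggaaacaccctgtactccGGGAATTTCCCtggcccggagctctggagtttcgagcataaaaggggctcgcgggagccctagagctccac
Cxcl2, chr5:90903779-90903898: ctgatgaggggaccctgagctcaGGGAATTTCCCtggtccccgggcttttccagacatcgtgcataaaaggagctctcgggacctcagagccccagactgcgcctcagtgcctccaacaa
Cxcl3, chr5:90785981-90786100: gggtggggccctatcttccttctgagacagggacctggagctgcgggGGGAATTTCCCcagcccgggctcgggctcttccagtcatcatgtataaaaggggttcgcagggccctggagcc
Il6, chr5:30012994-30013113: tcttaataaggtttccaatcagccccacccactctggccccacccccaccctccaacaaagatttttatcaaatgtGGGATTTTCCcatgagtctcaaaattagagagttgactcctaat
Mmp3, chr9:7445702-7445821: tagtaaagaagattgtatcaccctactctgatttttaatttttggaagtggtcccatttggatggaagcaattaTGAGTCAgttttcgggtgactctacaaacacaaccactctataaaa
Mmp13, chr9:7272394-7272513: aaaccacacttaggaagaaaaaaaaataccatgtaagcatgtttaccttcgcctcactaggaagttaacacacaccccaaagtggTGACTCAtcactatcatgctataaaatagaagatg

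*Cxcl2* was at 8.92, 7.26 and 8.84 CPM in NT and at 2.50, 1.72 and 2.21 CPM in IFT88siRNA, and fell by 1.97 on the log2 scale (SE 0.158, adjusted p = 8.663e-05). The lowest NT library was well above the highest IFT88siRNA library. *Cxcl3* was at 24.1, 22.8 and 25.0 CPM in NT and at 12.4, 10.7 and 11.5 CPM in IFT88siRNA, and fell by 1.06 (SE 0.0804, adjusted p = 7.257e-05). *Cxcl1*, named after its values were seen because its promoter is shown, was at 595, 551 and 562 CPM in NT and at 371, 364 and 351 CPM in IFT88siRNA, and fell by 0.65 (SE 0.0511, adjusted p = 7.407e-05). In all 3 genes the groups did not overlap and the spread within a group was small beside the difference. *Cxcl11*, named for a ligand of CXCR3, is a polymorphic pseudogene in the gene annotation. Its RNA was at 73.9, 61.6 and 76.1 CPM in NT and at 49.6, 28 and 42.1 CPM in IFT88siRNA. The gene fell by 0.83 (adjusted p = 0.0167), with 1582 bases of its exons shared with the antisense gene *Gm2673*. *Cxcl10*, a ligand of CXCR3, was at 886, 789 and 841 CPM in NT and at 995, 597 and 744 CPM in IFT88siRNA. These groups overlapped (adjusted p = 0.688). *Cxcl12*, a homeostatic chemokine, had a log2 difference of 0.14.

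Of the CC chemokines, all 7 had a negative difference (median −0.40) and 1 was called. *Ccl20*, the ligand of CCR6, was at 21.6, 19.9 and 19.8 CPM in NT and at 10.8, 8.95 and 9.52 CPM in IFT88siRNA, and fell by 1.07 (SE 0.0888, adjusted p = 0.0001122). *Ccl2*, which draws monocytes, was at 481, 425 and 453 CPM in NT and at 399, 303 and 331 CPM in IFT88siRNA. Its log2 difference of −0.40 had an adjusted p of 0.0329 and did not reach the fold threshold.

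Of 13 genes of the IL-6 family and its SOCS inhibitors, the cytokines *Il6*, *Lif* and *Il11* fell, and the list median was −0.04. *Il6* was at 57.1, 61.6 and 59.5 CPM in NT and at 24.7, 17.9 and 23.5 CPM in IFT88siRNA, and fell by 1.43 (SE 0.0979, adjusted p = 3.84e-05). *Lif*, a cytokine that signals through the shared receptor gp130, was at 138, 148 and 144 CPM in NT and at 85.4, 61.3 and 89.1 CPM in IFT88siRNA, and fell by 0.87 (SE 0.11, adjusted p = 0.0019). *Il11* was at 2.24, 2.65 and 2.95 CPM in NT and at 1.90, 1.15 and 1.27 CPM in IFT88siRNA, and fell by 0.89 with an adjusted p of 0.0498. Its call rests on few reads (a mean of 47.67 per library) and was lost in 4 of 6 fits that left out a library, with an adjusted p of up to 0.212. *Socs3*, the feedback inhibitor of gp130 signalling, was at 106 to 109 CPM in NT and at 88.9 to 105 CPM in IFT88siRNA and was not called.

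*Csf3* encodes G-CSF, the growth factor of neutrophils, and lies at chr11:98701263-98703629 on the plus strand. The gene was at 9.87, 9.08 and 11.4 CPM in NT and at 4.72, 3.11 and 2.86 CPM in IFT88siRNA, and fell by 1.53 (SE 0.1715, adjusted p = 0.0008563). All 3 IFT88siRNA libraries were below every NT library, and replicate 1 was the highest of them. *Csf1*, which encodes the macrophage growth factor M-CSF, was not called (log2 difference −0.11).

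**Figure D3:**
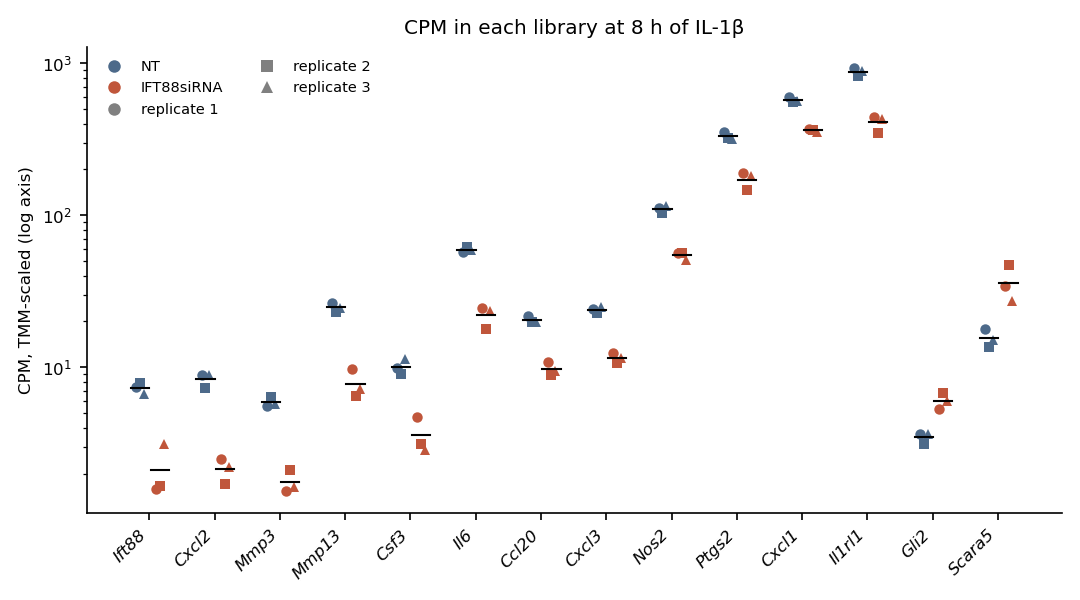
Level of 14 genes in each of the 6 libraries at 8 h (y axis, TMM-scaled CPM on a log axis; x axis, genes), with NT in blue, IFT88siRNA in red, a different symbol for each replicate and the group mean as a bar. The groups do not overlap in any gene shown, and *Ift88* in IFT88siRNA replicate 3, at 3.15 CPM, lies between its group and NT.

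The enzymes of nitric oxide and prostaglandin synthesis had 3 of 13 members called lower and 12 of 13 with a negative difference (median −0.33). *Nos2*, the inducible nitric oxide synthase (chr11:78920787-78960254, plus strand), was at 111, 103 and 115 CPM in NT and at 56.2, 56.5 and 51.0 CPM in IFT88siRNA, and fell by 1.0 (SE 0.0600, adjusted p = 3.604e-05). *Ptgs2*, which encodes the inducible cyclooxygenase COX-2 (chr1:150100031-150108227, plus strand), was at 350, 323 and 316 CPM in NT and at 188, 146 and 180 CPM in IFT88siRNA, and fell by 0.95 (SE 0.0845, adjusted p = 0.0001928). In both genes every IFT88siRNA library was far below the lowest NT library, with no overlap. *Ptges*, the terminal synthase of prostaglandin E2, was at 12.8, 9.73 and 10.7 CPM in NT and at 7.64, 7.48 and 5.68 CPM in IFT88siRNA, and fell by 0.68 (adjusted p = 0.0226). Without IFT88siRNA replicate 3, *Ptges* had a log2 difference of −0.54 (adjusted p = 0.00987) and was under the fold threshold.

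Among matrix metalloproteinases and their TIMP inhibitors, 2 of 12 members fell and the median was 0.05. *Mmp13*, the main collagenase acting on type II collagen, was at 26.7, 22.9 and 24.7 CPM in NT and at 9.77, 6.48 and 7.21 CPM in IFT88siRNA, and fell by 1.68 (SE 0.128, adjusted p = 7.257e-05). *Mmp3*, stromelysin-1, which cleaves proteoglycans and activates other MMPs, was at 5.58, 6.38 and 5.74 CPM in NT and at 1.53, 2.11 and 1.63 CPM in IFT88siRNA, and fell by 1.73 (SE 0.160, adjusted p = 0.0002265). Both genes lie in the MMP cluster of chromosome 9, and neither had overlapping groups. *Mmp10*, stromelysin-2, was at 5.28, 3.07 and 3.41 CPM in NT and at 2.64, 1.86 and 2.03 CPM in IFT88siRNA, a log2 difference of −0.85 that did not pass the test (adjusted p = 0.0601). None of 8 ADAMTS proteases and none of 16 fibrillar collagens and small proteoglycans was called, with medians of −0.03 and −0.01.

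Other genes of the matrix and its turnover had 1 call each. *Serpinb2*, an inhibitor of urokinase, was at 12, 11.8 and 11.2 CPM in NT and at 6.07, 4.58 and 4.96 CPM in IFT88siRNA, and fell by 1.17 (SE 0.116, adjusted p = 0.000363). Its exons share 291 bases with *Serpinb10* on the same strand. *Cemip*, which takes part in breaking down hyaluronan, was at 46.6, 48.6 and 45.7 CPM in NT and at 27.3, 29.1 and 28 CPM in IFT88siRNA, and fell by 0.74 (adjusted p = 7.407e-05). The hyaluronan synthase genes *Has1* and *Has2* had log2 differences of −1.16 (adjusted p = 0.0667) and −0.58, and neither was called. Of 16 cartilage matrix and chondrogenic genes, *Prg4*, which encodes lubricin, fell by 0.65 (adjusted p = 0.0208), from 8.32, 7.54 and 7.13 CPM to 5.70, 4.69 and 4.27 CPM. Its call was lost in 5 of 6 fits that left out a library, and without IFT88siRNA replicate 3 its log2 difference was −0.57 (adjusted p = 0.0116). *Sox9*, the chondrogenic transcription factor, was at 27.5, 27.1 and 24.9 CPM in NT and at 31.6, 33.5 and 31.1 CPM in IFT88siRNA, a log2 difference of 0.28 (adjusted p = 0.0413) under the fold threshold. *Sox4*, with 2616 bases of its exon shared with an antisense gene, had a log2 difference of 0.20 (adjusted p = 0.219).

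The IL-1 family and its receptors had 2 of 7 members called lower and 7 of 7 with a negative difference (median −0.48). *Il1rl1*, the receptor of IL-33 (chr1:40429570-40465415, plus strand), was at 926, 822 and 892 CPM in NT and at 445, 349 and 427 CPM in IFT88siRNA, and fell by 1.11 (SE 0.0847, adjusted p = 7.257e-05). *Il18rap*, the accessory chain of the IL-18 receptor, was at 11.5, 9.31 and 9.58 CPM in NT and at 6.44, 5.05 and 6.08 CPM in IFT88siRNA, and fell by 0.79 (adjusted p = 0.00706). *Il1r1*, which encodes the receptor that binds IL-1β, had a log2 difference of −0.09. *Il1rap*, the accessory chain shared by the IL-1 and IL-33 receptors, was at 206, 204 and 192 CPM in NT and at 140, 136 and 134 CPM in IFT88siRNA. The groups did not overlap (log2 difference −0.55, adjusted p = 0.0001928), and at 1.469-fold the gene was just under the fold threshold. None of 13 MyD88, IRAK and TAK1 components was called (median −0.08).

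Of 23 NF-κB subunits and feedback genes, 2 fell and 18 had a negative difference (median −0.17). *Tnfaip3*, which encodes the inhibitor A20, was at 121, 119 and 119 CPM in NT and at 81.2, 71.0 and 81.9 CPM in IFT88siRNA, and fell by 0.62 (adjusted p = 0.000318). *Traf1*, a TNF receptor adaptor, fell by 0.78 (adjusted p = 0.0407), a call lost in 5 of 6 fits that left out a library. The subunit *Rela* had a log2 difference of −0.50 (adjusted p = 0.0004245) and the co-regulator *Nfkbiz* of −0.48 (adjusted p = 0.000718), both under the fold threshold, and the inhibitor *Nfkbia* was at −0.17. In the TNF superfamily, the receptor gene *Cd40* fell by 1.11 (adjusted p = 0.0472) and the ligand gene *Tnfsf15* by 0.61 (adjusted p = 0.045). Both calls were lost in most fits that left out a library, with an adjusted p of up to 0.203 and 0.189. *Tnf* itself was at 0.55, 0.74 and 0.78 CPM in NT and at 0.28, 0.54 and 0.51 CPM in IFT88siRNA and was not called (log2 difference −0.62, adjusted p = 0.327). *Icam1*, an adhesion molecule for leukocytes, was at 31.0, 27.6 and 30.7 CPM in NT and at 18.3, 17.3 and 15.9 CPM in IFT88siRNA, and fell by 0.80 (adjusted p = 0.000341), with 511 bases of its exons shared with an antisense gene. *Vcam1*, of the same list, was at 148 to 162 CPM in NT and at 106 to 124 CPM in IFT88siRNA and was not called.

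All 18 AP-1 and immediate-early genes had a negative difference (median −0.38), and 4 were called. *Nr4a1*, an orphan nuclear receptor induced early by many stimuli, was at 36.1, 35 and 35 CPM in NT and at 19.6, 14.1 and 17.2 CPM in IFT88siRNA, and fell by 1.06 (SE 0.0991, adjusted p = 0.0002331). Its relatives fell too, *Nr4a2* by 0.78 (adjusted p = 0.000382) and *Nr4a3* by 0.75 (adjusted p = 0.0161). *Egr2*, a zinc finger transcription factor, fell by 0.60 (adjusted p = 0.0138), and the calls of *Nr4a3* and *Egr2* were lost in 4 and 3 of 6 fits that left out a library. *Jun*, an AP-1 subunit, was at 142, 140 and 152 CPM in NT and at 142, 124 and 124 CPM in IFT88siRNA, with overlapping groups (log2 difference −0.16, adjusted p = 0.184). *Fosl1*, another AP-1 subunit, was at 85.7 to 87.8 CPM in NT and at 53.4 to 69.0 CPM in IFT88siRNA and was not called. Of 13 MAP kinase phosphatase and Sprouty genes, *Spry2*, an inhibitor of receptor tyrosine kinase signalling, fell by 0.71 (adjusted p = 0.00319).

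Among EGF receptor ligands and FGF genes, 3 of 12 fell. *Ereg*, epiregulin, was at 383, 351 and 369 CPM in NT and at 211, 190 and 206 CPM in IFT88siRNA, and fell by 0.86 (adjusted p = 3.666e-05). *Areg*, amphiregulin, fell by 0.97 (adjusted p = 0.0171), from between 2.93 and 3.57 CPM to between 1.47 and 2.04 CPM. *Fgf2*, a growth factor stored in the matrix, fell by 0.69 (adjusted p = 0.000382), and 640 bases of its exons are shared with the antisense gene *Nudt6*. Of 16 ER stress and ATF4 target genes, *Slc7a11*, the cystine transporter, and *Trib3*, a pseudokinase, fell by 0.67 and 0.64. Outside the lists, the peptidase inhibitor gene *Pi15* was at 11.2, 9.82 and 8.80 CPM in NT and at 4.31, 4.37 and 3.40 CPM in IFT88siRNA, and fell by 1.30 (SE 0.135, adjusted p = 0.000502). *Angptl7*, an angiopoietin-like secreted protein, was at 3.74, 3.58 and 3.68 CPM in NT and at 1.39, 1.68 and 1.88 CPM in IFT88siRNA, and fell by 1.14. Of the lower genes in no list, 2 enzymes known from macrophages were chosen after their values were seen. *Acod1*, which makes itaconate, was at 18.3, 15.9 and 17.9 CPM in NT and at 11.0, 7.2 and 9.45 CPM in IFT88siRNA (log2 fall 0.92). *Ch25h*, which makes 25-hydroxycholesterol, was at 50.1, 43.5 and 50.0 CPM in NT and at 28.3, 26.2 and 25.1 CPM in IFT88siRNA (log2 fall 0.86).

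Other lists, of inflammatory and of housekeeping genes, had no call. In 27 interferon-stimulated genes, 26 differences were below 0 but none was called (median −0.13), and likewise in 12 MHC class I and immunoproteasome genes (11 below 0, median −0.05). None of 16 acute-phase and complement genes (median −0.14) and none of 17 BMP, activin and ID genes (median −0.07) was called. Of 30 cell cycle genes, 21 cholesterol synthesis genes, 17 glycolysis genes and 17 oxidative stress genes, none was called, with medians of 0.03, 0.10, 0.02 and 0.03. In these lists 11, 2, 7 and 7 differences were below 0.

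Genes of the cilium other than *Ift88* were not called. Among 17 IFT-B genes the median was 0.04, among 15 IFT-A and motor genes 0.10 and among 23 BBSome and transition zone genes 0.06. In these lists 5, 2 and 9 differences were below 0, with *Ift88* among the 5. *Ttbk2*, a kinase needed to start cilium assembly, had a log2 difference of −0.06 (adjusted p = 0.767), and *Nphp4*, a transition zone gene, of −0.06 (adjusted p = 0.803). Both signs turned when a library was left out. Exons of *Ttbk2* share 3409 bases with *Cdan1* on the same strand. In the Hedgehog pathway, which signals through the cilium, 1 of 12 genes was called. *Gli2*, the main activating transcription factor of the pathway (chr1:118834132-119053619, minus strand), was at 3.64, 3.12 and 3.64 CPM in NT and at 5.33, 6.73 and 5.97 CPM in IFT88siRNA, and rose by 0.80 (SE 0.139, adjusted p = 0.0113). Its groups did not overlap, but the call was lost in 4 of 6 fits that left out a library, with an adjusted p of up to 0.0573. The pathway's target genes *Gli1* and *Ptch1* had log2 differences of 0.11 (adjusted p = 0.873) and −0.08 (adjusted p = 0.448), and *Smo*, its signal transducer in the cilium, of 0.31 (adjusted p = 0.0218).

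Of the 12 genes called higher, *Scara5*, a scavenger receptor that binds ferritin (chr14:65666403-65764826, plus strand), was at 17.8, 13.6 and 15.2 CPM in NT and at 34.1, 46.8 and 27.1 CPM in IFT88siRNA. It rose by 1.22 (SE 0.171, adjusted p = 0.003355), and its IFT88siRNA libraries were further apart than its NT libraries. *Aldh3a1*, an aldehyde dehydrogenase, rose by 0.91 (adjusted p = 0.00507), from between 2.56 and 3.14 CPM to between 5.07 and 5.62 CPM. *Mettl7a1*, a methyltransferase-like gene, was at 17.0, 18.0 and 17.2 CPM in NT and at 26.6, 32.0 and 26.0 CPM in IFT88siRNA, and rose by 0.70 (adjusted p = 0.0019). These 3 kept the call whichever library was left out. The other 8 named rises, *Gli2* among them, lost it without 1 or more libraries. These included *Anpep* (log2 rise 0.92), *Chdh*, choline dehydrogenase (0.75), *Cdh26*, a cadherin (0.70), and *Camsap3*, a protein of microtubule minus ends (0.62). *Smim1*, a small membrane protein, *Adamtsl1*, a secreted relative of the ADAMTS proteases, and *Cped1* rose by 0.83, 0.68 and 0.67. The 12th gene, *Alpl*, alkaline phosphatase, rose by 0.88 with a mean of 34.67 reads per library, under the minimum of 50 that the rule for the largest rises sets, and is named after its values were seen. Of these genes, *Camsap3*, *Cped1*, *Chdh* and *Smim1* share 570 to 1137 bases of exon with an antisense gene.

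Of the 37 named falls, 23 kept the call in all 6 fits that left out a library, and 14 lost it in 1 or more. Those that kept it were *Ift88*, *Cxcl2*, *Cxcl3*, *Cxcl9*, *Ccl20*, *Il6*, *Lif*, *Csf3*, *Nos2*, *Ptgs2*, *Mmp3*, *Mmp13*, *Il1rl1*, *Icam1*, *Nr4a1*, *Nr4a2*, *Spry2*, *Ereg*, *Fgf2*, *Cemip*, *Serpinb2*, *Pi15* and *Angptl7*. *Tnfaip3* lost the call only without IFT88siRNA replicate 2, where it was under the fold threshold at −0.55, and *Il18rap* only without NT replicate 1 (adjusted p = 0.0531). *Cxcl11*, *Slc7a11* and *Trib3* lost it without 2 libraries, with an adjusted p of up to 0.0959, 0.062 and 0.057, and *Areg* and *Egr2* without 3, with up to 0.101 and 0.0922. *Il11*, *Ptges*, *Nr4a3* and *Tnfsf15* lost it without 4 libraries and *Cd40*, *Prg4* and *Traf1* without 5. Without IFT88siRNA replicate 3, the log2 difference was −2.01 for *Cxcl2*, −1.67 for *Mmp3*, −1.63 for *Mmp13*, −1.40 for *Csf3*, −1.49 for *Il6*, −0.96 for *Nos2*, −0.98 for *Ptgs2* and −1.15 for *Il1rl1*.

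To relate the difference at 8 h to the IL-1β response, genes were classed by NT at 4 h against NT at 0 h, libraries that the comparison at 8 h did not use. By the same thresholds, IL-1β raised 2477 of 15082 genes at 4 h (16.4%) and lowered 1971 (13.1%). Of the 93 genes lower in IFT88siRNA at 8 h, 76 were raised by IL-1β (81.7%) and 1 was lowered. Of the 12 higher genes, 0 were raised and 8 were lowered by IL-1β. These shares depend on IFT88siRNA replicate 3, since without it 197 of the 543 lower genes were raised by IL-1β (36.3%), 64 were lowered (11.8%) and 253 were in neither class (46.6%), and of the 40 higher genes 5 were raised and 17 lowered. Read the other way, 3.16% of the 2408 raised genes tested at 8 h were called lower and none higher, with a median of −0.13 and 1804 differences below 0. Among the 597 raised over 4-fold, 60 were called lower (10.05%), with a median of −0.31 and 533 differences below 0. Those genes had a median log2 difference of −0.20, −0.40 and −0.22 in IFT88siRNA replicates 1, 2 and 3 against the NT mean, so that all 3 libraries were on the same side. Genes that IL-1β lowered had a median of 0.05, with 1 of 1837 lower and 8 higher, and genes in neither class had a median of 0.01, with 13 of 10464 lower and 3 higher. Without IFT88siRNA replicate 3, 112 of 598 genes raised over 4-fold were lower and 1 was higher, while among the genes that IL-1β lowered, 64 of 1850 were lower and 17 higher, so that more of them were called lower than higher. The median log2 difference without it was −0.13 for raised genes, −0.35 for those raised over 4-fold and 0.05 for lowered genes.

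**Figure D4:**
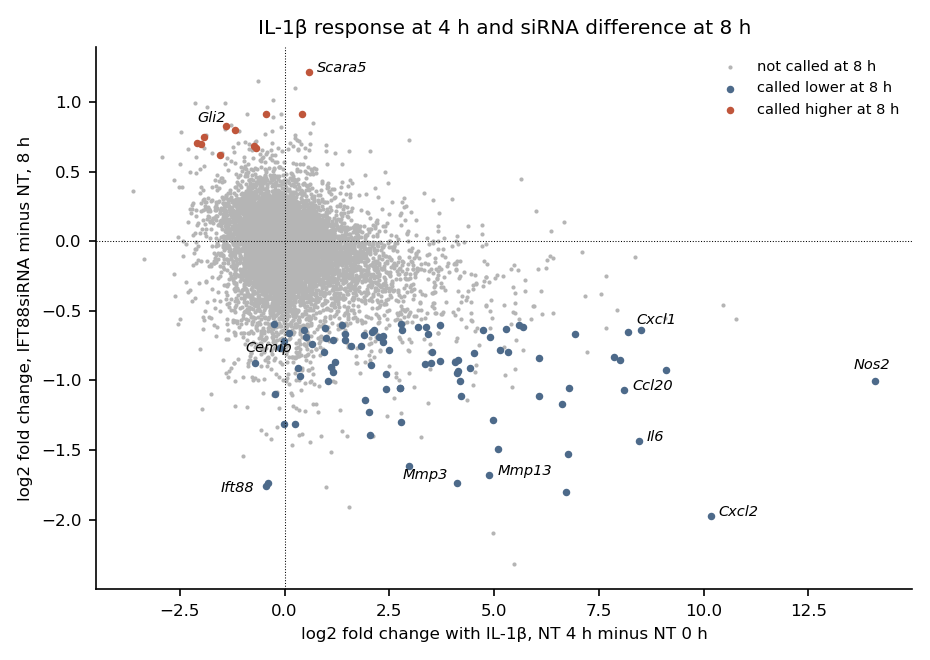
Log2 fold change with IL-1β in NT (4 h minus 0 h, x axis) against the log2 fold change of IFT88siRNA minus NT at 8 h (y axis) for the 14704 genes tested in both. Most of the 90 lower genes shown (blue) lie to the right of 0 and most of the 11 higher genes (red) to its left. For genes near 0 counts at 0 h, such as *Nos2*, the x value depends on the prior count of the fit.

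Over RefSeq promoters of 300 bases (250 before the start and 50 after it), the motif counts were taken on both strands as descriptions of the letters present. The NF-κB consensus was in 4.51% of all 32851 promoters and in 5.46% of the promoters of genes tested at 8 h. Among the 83 promoters found for 68 of the 93 lower genes it was in 13 (15.7%), and among the 11 promoters of 8 higher genes in 0. The AP-1 motif TGANTCA was in 7.81% of all promoters and in 5.42% of the promoters of genes tested at 8 h. It was in 13 of the promoters of the lower genes (15.7%) and in 1 of those of the higher genes (9.09%). Most of the lower genes were raised by IL-1β, so the raised genes are the nearer reference. Promoters of raised genes that were not called held the NF-κB consensus in 8.61% and the AP-1 motif in 8.38% of 2160, and those of raised genes called lower held them in 17.1% and 18.6% of 70. Genes can have several promoters, and neighbouring genes such as *Cxcl1*, *Cxcl2* and *Cxcl3* share sequence. In the windows shown, the NF-κB match ended 61 bases before the RefSeq start in *Cxcl1*, 87 in *Cxcl2*, 63 in *Cxcl3* and 35 in *Il6*. The AP-1 match ended 40 bases before the RefSeq start in *Mmp3* and 29 in *Mmp13*. In the GENCODE annotation *Cxcl2* starts at chr5:90903871, inside the window shown, so its distance depends on the start used.

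In the time course, NT was highest at 4 h in 48 of the 93 lower genes, at 8 h in 24 and at 1 h in 11. In 82 of the 93 the IFT88siRNA level at 8 h was still above its own level at 0 h, against 88 in NT. These counts have no share over all genes tested beside them, and the libraries at 8 h also entered the calls. *Il6*, on a CPM scale set over all 36 libraries, was at 81.2 ± 3.30 in NT and 52.7 ± 3.0 in IFT88siRNA at 4 h, at 56.6 ± 1.90 and 21.3 ± 3.49 at 8 h, and at 19.2 ± 0.415 and 9.12 ± 0.440 at 24 h (SD, n = 3). *Nos2* was highest at 4 h, with 348 ± 37.0 in NT and 232 ± 13.6 in IFT88siRNA at 4 h and 104 ± 6.21 and 52.6 ± 3.51 at 8 h. *Cxcl2* was highest at 1 h, at 58.2 ± 4.29 in NT and 21.9 ± 3.22 in IFT88siRNA. *Mmp13*, unlike these, was higher in NT at 8 h (23.6 ± 1.89) than at 4 h (16.8 ± 1.58), while IFT88siRNA was at 9.36 ± 0.710 at 4 h and 7.55 ± 1.73 at 8 h. *Mmp3* was at 3.03 ± 0.0885 and 5.62 ± 0.369 in NT and at 1.57 ± 0.156 and 1.69 ± 0.303 in IFT88siRNA at the same times. *Nr4a1* was at 1888 ± 56.5 in NT and 2152 ± 47.0 in IFT88siRNA at 1 h, and at 33.7 ± 0.752 and 16.4 ± 2.74 at 8 h.

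**Figure D5:**
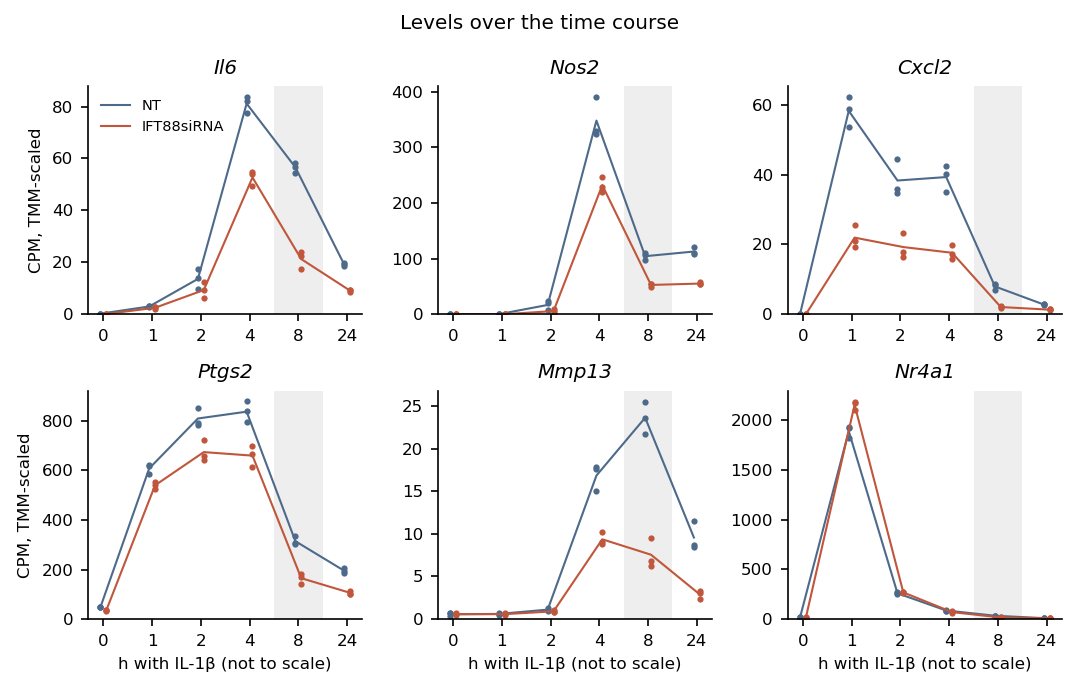
CPM (y axis, scaled over all 36 libraries) of *Il6*, *Nos2*, *Cxcl2*, *Ptgs2*, *Mmp13* and *Nr4a1* at 0 to 24 h with IL-1β (x axis, not to scale), with points for libraries, lines through the means, NT in blue, IFT88siRNA in red and 8 h shaded. NT lies above IFT88siRNA at 8 h in all 6 genes, while *Nr4a1* at 1 h is higher in IFT88siRNA.

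The siRNA difference at 8 h was then tested against that at 0, 4 and 24 h as an interaction, each in 12 libraries, with an adjusted p under 0.05 and a difference over 1.5-fold. Against 0 h, 37 of 15943 genes differed (0.232%), 33 of them with a more negative difference at 8 h. Of the 105 genes called at 8 h, 4 were among them. *Mmp13* had a log2 difference of 0.04 at 0 h, and its difference at 8 h was 1.72 lower (adjusted p = 0.0428). *Nr4a1* was at −0.13, *Pi15* at 0.38 and *Prg4* at 0.54 at 0 h, with adjusted p-values of 0.00156, 0.0148 and 0.0265 for the change to 8 h. In level, *Mmp13* was at 0.564 CPM in NT and 0.579 in IFT88siRNA at 0 h, *Pi15* at 0.723 and 0.938 and *Prg4* at 1.1 and 1.6. Differences of these genes at 0 h therefore rest on few reads, while *Nr4a1* was at 16.1 and 14.6 CPM. Against 4 h, 1 of 15563 genes differed (0.00643%), which was *Il6*, with −0.63 at 4 h and −1.43 at 8 h (adjusted p = 0.0168). Against 24 h, 9 of 15890 differed (0.0566%), and of the genes called at 8 h only *Nr4a1* was among them (−0.34 at 24 h, adjusted p = 0.0452). Of these 6 results, that of *Nr4a1* against 0 h kept its call in all 12 fits that left out a library (adjusted p of up to 0.0109). The others lost it without 4 to 9 of the 12 libraries, *Il6* with an adjusted p of up to 0.091 and *Mmp13* with up to 0.201, and their log2 values kept the same sign. A further 4 results passed the adjusted p but not the fold, *Ptgs2* (−0.50, adjusted p = 0.0277) and *Gdnf* (−0.53, adjusted p = 0.0355) against 0 h, and *Icam1* (−0.57, adjusted p = 0.0452) and *Ch25h* (−0.50, adjusted p = 0.0445) against 24 h. The counts moved with the libraries used, from 20 to 72 against 0 h, from 0 to 14 against 4 h and from 2 to 53 against 24 h when 1 library was left out. The highest counts were those without IFT88siRNA replicate 3 at 8 h (72 and 53) and, against 4 h, without IFT88siRNA replicate 1 at 8 h (14). The count against 4 h was 0 without any 1 of the NT libraries or without IFT88siRNA replicate 1 at 4 h, whereas DESeq2 gave 11 genes and all 36 libraries in 1 model gave 15. Before IL-1β, 74 of the 93 lower genes were below NT, with a median log2 difference of −0.42. At 4 and 24 h, 88 and 87 were below NT, with medians of −0.46 and −0.48. No share over all genes tested is given for these times. Some of the lower genes were near 0 CPM before IL-1β, such as *Cxcl2* (0.0289 in NT, 0 in IFT88siRNA) and *Nos2* (0.0141 and 0.0466). Signs and log2 differences of such genes at 0 h rest on few reads. *Scara5* was at 6.48 ± 0.699 in NT and 17.8 ± 1.06 in IFT88siRNA at 0 h, and *Gli2* at 6.03 ± 0.735 and 8.41 ± 0.439 (CPM, SD, n = 3).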

How the data were processed

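Poly(A) RNA was sequenced as paired-end reads over 3 lanes, with no lane or batch given for any library. The authors aligned reads with HISAT2 2.1.0 and deposited raw counts per gene from featureCounts (Subread 1.6.3) on GRCm38, by default without strand, and deposited TPM values from Salmon 0.9.1 (tools from the submitters' processing notes). Groups came from the labels. Counts of the 3 IFT88siRNA and 3 NT libraries at 8 h were tested with edgeR 4.0.16 in R 4.3.3 (TMM, filterByExpr, quasi-likelihood F-test, two-sided, Benjamini-Hochberg). A gene was called with an adjusted p under 0.05 and a fold over 1.5. The SE is the absolute log2 fold change over the square root of F. Interactions used 12 libraries each. TPM was used only in alternatives (limma 3.58.1 on log2(TPM + 1), at least 1 TPM in 3 libraries). The members and lists were chosen with earlier results of these data known.

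Named genes were *Ift88*, those the study's text names from its RNA-seq, the 12 largest falls and rises among called genes whose groups do not overlap and whose mean is at least 50 counts, up to 4 called members per list and up to 5 called genes per interaction. Other alternatives were DESeq2 1.42.0, RLE and upper-quartile scaling, no filter, no fold threshold, a replicate block, all 36 libraries in 1 model, voom with quality weights, pseudocount 0.1, no TPM filter and leaving out each library. The fits were run on simulated counts with known changes, in which no library stood apart, and were scored by the adjusted p alone. That simulation does not show how the calls behave when a library stands apart. Coordinates are from GENCODE for GRCm38, which held 15147 of the 15165 gene identifiers tested. Figures were drawn with matplotlib 3.10.9.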

Additional observations from a re-analysis of the deposited data

Results flagged for a closer look

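The siRNA difference at 8 h differed from that at another time in 6 tests of genes called at 8 h, by the interaction term of edgeR's quasi-likelihood test with Benjamini-Hochberg adjustment and a difference over 1.5-fold. For *Mmp13* the log2 difference at 8 h minus that at 0 h was −1.72 (adjusted p = 0.0428), and the 3 IFT88siRNA libraries were below all 3 NT libraries at 8 h. For *Pi15* it was −1.68 (adjusted p = 0.0148), for *Prg4* −1.20 (adjusted p = 0.0265) and for *Nr4a1* −0.93 (adjusted p = 0.00156). At 0 h in NT, *Mmp13* was at 0.564, *Pi15* at 0.723 and *Prg4* at 1.1 CPM, so their differences at 0 h rest on few reads. *Il6* had a log2 difference at 8 h minus that at 4 h of −0.80 (SE 0.118, adjusted p = 0.0168), and *Nr4a1* one against 24 h of −0.72 (adjusted p = 0.0452). Leaving out a library in turn, the *Nr4a1* value against 0 h kept its call in all 12 fits, and the other 5 lost it in 4 to 9 of 12, with ranges of −1.90 to −1.48 for *Mmp13*, −1.94 to −1.44 for *Pi15*, −1.32 to −0.99 for *Prg4*, −0.89 to −0.67 for *Il6* and −0.81 to −0.60 for *Nr4a1* against 24 h.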

How the results depend on the processing

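Of the named genes called at 8 h, none changed sign under any alternative. The groups of these genes did not overlap, so leaving out a library or rescaling could hardly turn a sign. The scalings moved the median of all genes by less than 0.1 on the log2 scale. Called genes at 8 h (105, of which 93 lower and 12 higher) became 245, 208 and 37 without the filter, 644, 392 and 252 without the fold threshold, 231, 189 and 42 with all 36 libraries in 1 model, 283, 254 and 29 with voom weights, 36, 31 and 5 on log2(TPM + 1), 36, 30 and 6 on log2(TPM + 0.1), and 22, 19 and 3 on TPM without a filter. Without the fold threshold 60.87% of calls were lower, against 88.57%. DESeq2 gave 80 lower and 13 higher genes, sharing 74 of the 93 and 10 of the 12, and the log2(TPM + 1) fit shared 22 of the 93 and 0 of the 12. On TPM, *Ift88* itself was not past the test, at −1.62 (adjusted p = 0.0989), −2.18 (0.115) with 0.1 added and −1.62 (0.214) without a filter. The cause was not tested.

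Called list members (36) became 91 without the fold threshold and 17, 17 and 9 on the 3 TPM fits. The share of IL-1β-raised genes called lower became 4.885% without the filter and with all 36 libraries, 11.09% without the fold threshold, 5.855% with voom weights, and 0.9221%, 0.9221% and 0.406% on TPM. Genes that IL-1β changed in NT (4448) became 9992 without the fold threshold. Interaction counts against 0, 4 and 24 h (37, 1 and 9) became 71, 28 and 79 without the filter and 125, 3 and 35 without the fold threshold. The counts against 4 and 24 h became 15 and 21 with all 36 libraries and 11 and 21 with DESeq2, and that against 24 h became 5 with RLE scaling. Of the named interactions, *Mmp13* against 0 h lost its call with upper-quartile scaling (adjusted p = 0.0524) and *Nr4a1* against 24 h with RLE (0.0544).

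Deviations from the group means correlated between the siRNA groups at 0.292, −0.182 and −0.036 for replicates 1, 2 and 3. With 3 libraries per group these values cannot show whether libraries of the same number shared a culture or a batch, and the labels do not say. With the replicate number as a block, 124 genes were lower and 12 higher, the interaction counts against 4 and 24 h were 8 and 19, and *Camsap3* lost its call (adjusted p = 0.0569).

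Leaving out each library gave 47 to 583 called genes, 42 to 543 lower, 3 to 40 higher, 24 to 42 list members, 1.434% to 8.151% of raised genes, 4448 to 4503 IL-1β genes, 20 to 72, 0 to 14 and 2 to 53 interaction calls, and −2.17 to −1.58 for *Ift88*. The uncalled *Ttbk2* ranged from −0.15 to 0.0176 and was 0.0098 with voom weights, and *Nphp4* ranged from −0.12 to 0.0747. Depth limits calls at low counts, and 19 of the 93 lower genes had a mean under 50 counts per library.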

Other observations

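Without IFT88siRNA replicate 3, a further 443 of the genes tested with all 6 libraries were called lower by edgeR's quasi-likelihood test. Genes tested only without that library are not in this count. Of these, 228 were protein coding (51.5%, against 84.6% of all genes tested), and 229 had a mean under 50 counts per library. Of the 27 further genes called higher, counted in the same way, 24 were protein coding. Among the genes called lower with all 6 libraries, *Malat1*, a nuclear non-coding RNA outside the naming rule and chosen after its values were seen, was at 116, 110 and 133 CPM in NT and at 65.1, 63.1 and 82.7 CPM in IFT88siRNA, a log2 fall of 0.77.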
